A study of Mus musculus with 24 samples.

Results

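The comparison described here set mRNAs that sedimented with many ribosomes against mRNAs in the ribosome-free top of the gradient, in vehicle-treated NIH/3T3 cells. NIH/3T3 is an established fibroblast line derived from mouse embryos. The comparison takes 6 of the 24 libraries of the series, chosen by the headers of the count table: 3 heavy polysome and 3 ribosome-free libraries of cells given PBS as vehicle for 24 h at 37 °C, in DMEM with 10% bovine calf serum. The study treated these cells with PBS or with 100 nM halofuginone, an inhibitor of the glutamyl-prolyl-tRNA synthetase that Eprs encodes, and cut the lysate of each culture on a sucrose gradient into pools. Per the series text, the ribosome-free pool held free ribonucleoprotein and the 40S and 60S subunits, and the heavy pool held RNA with more than 5 ribosomes. A light pool lay between them, and total RNA was sequenced as well. In the headers, 1 library of each pool (called tag A here) joined gradient fractions 1 to 2 as ribosome-free and 7 to 11 as heavy, and the other libraries (tags 2 and 4) joined fractions 1 to 5 and 14 to 21.

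A ribosome that starts on an mRNA moves along the coding sequence while others load behind it, so an actively translated mRNA carries a string of ribosomes and sinks deep into the gradient. A coding sequence offers room for ribosomes in proportion to its length. Initiation can be held back by sequences in the leader, among them the oligopyrimidine start (TOP) of mRNAs for the translation machinery, short upstream reading frames, and the iron-responsive element (IRE) to which iron regulatory proteins bind. RNAs with no long reading frame, and RNAs kept in the nucleus or in mitochondria, do not load cytosolic ribosomes in this way.

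The ribosome-free libraries held 17364135, 10300517 and 11051179 counts and the heavy libraries 22488840, 22047721 and 13363866, in the order tag A, tag 2 and tag 4 that all values below follow. Mitochondrially encoded genes took 8.69%, 34.9% and 30.8% of the counts in the ribosome-free pools and 0.394%, 0.384% and 0.276% in the heavy pools. Of 10 fibroblast markers 9 passed the expression filter, against 0 of 5 epithelial, 2 of 6 leukocyte (Cd68 and Lyz2), 1 of 5 endothelial (Vwf) and 2 of 5 adipocyte markers (Fabp4 and Lpl). The series text calls the cultures biological triplicates, but no label ties a library to a culture, so the p-values measure the spread between these libraries, which may be partly technical. The labels name no spike-in RNA. A value is therefore a share of its pool: more of one RNA and less of the others cannot be told apart.

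The fit with the 3 pairs as blocks tested 12225 genes and called 4508 (36.9%) at an adjusted p under 0.05. Of these, 2054 (16.8%) were higher in heavy polysomes and 2454 (20.1%) were higher in the ribosome-free pool. A called difference of at least 2-fold was found for 4352 genes (35.6%), 1950 (16%) on the heavy and 2402 (19.6%) on the ribosome-free side. The 3 libraries of each pool did not overlap for 5704 genes (46.7%), 2848 (23.3%) higher in heavy polysomes and 2856 (23.4%) higher in the ribosome-free pool, among them 89.6% of the genes called higher in heavy polysomes and 90.3% of those called higher in the ribosome-free pool. All 2054 genes of the first kind and 2439 of the 2454 of the second had the same sign in each of the 3 pairs. Over all genes tested this held for 7844 of 12225 (64.2%). A paired fit favours genes whose pairs agree, so the agreement of called genes is not separate support. The median log2 fold change (heavy over ribosome-free) of all genes tested was 0.07. Scaling by library totals alone, without the TMM composition factor, raised that median by 0.82 and gave 5420 higher and 1408 lower calls, so directions below are relative to the bulk of the mRNAs. The number of calls was 8478 without the tag A pair, 2270 without tag 2 and 2275 without tag 4. On the heavy side these were 4248, 669 and 610, and on the ribosome-free side 4230, 1601 and 1665. The genes tested numbered 12172, 12362 and 12654. Without the pairing term there were 3616 calls, 1457 heavy and 2159 ribosome-free. Counts of gene groups under these settings are to be read against those of all genes. Calls of named genes lost under these settings, under other scaling factors, or with a looser or a stricter expression filter (at least 5 CPM in 3 libraries) stand beside the genes.

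**Figure D1:**
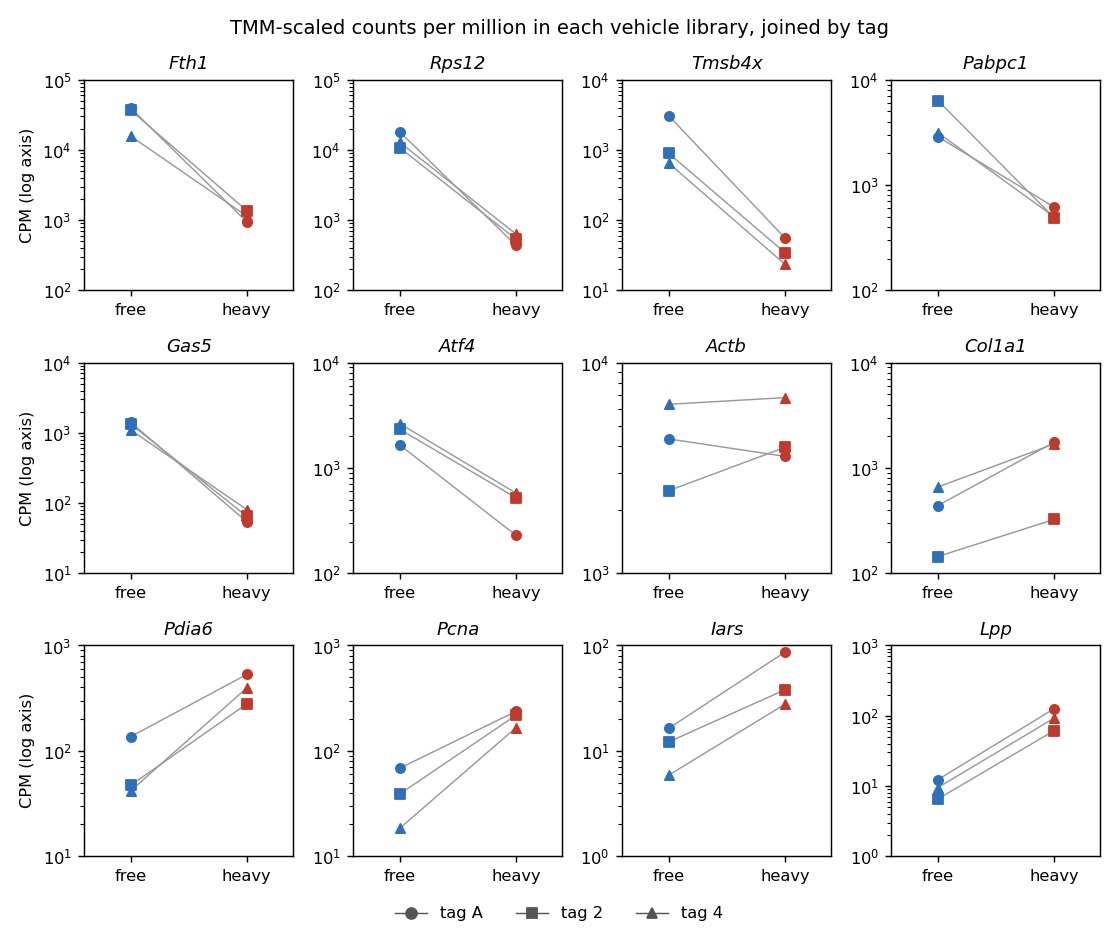
CPM values (TMM-scaled share of the counts of a library, log axis) of 12 genes in the 3 ribosome-free (blue) and 3 heavy polysome (red) vehicle libraries, with lines joining libraries of the same tag. The lines fall steeply for Fth1, Rps12, Tmsb4x, Pabpc1, Gas5 and Atf4, cross each other for Actb, and rise for Col1a1, Pdia6, Pcna, Iars and Lpp.

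The ferritin mRNAs, whose products store iron, were far higher in the ribosome-free pool. Fth1, the ferritin heavy chain gene, stood at 39473, 36823 and 15768 CPM in the ribosome-free libraries and at 949, 1366 and 1143 CPM in the heavy libraries. Ftl1, the light chain gene, stood at 27496, 20005 and 5060.3 CPM and 772, 873 and 695 CPM. All heavy values of both genes lay below all their ribosome-free values, while the heavy values of each gene spanned a narrow range. The log2 fold change was -4.64 ± 0.66 (SE, adjusted p = 0.00259) for Fth1 and -4.20 ± 0.69 (SE, adjusted p = 0.0038) for Ftl1. Ftl1 did not pass without the tag 2 pair (adjusted p = 0.0521). The leader of each mRNA holds an IRE, printed from the GENCODE M21 transcripts (GRCm38) with the loop in capitals; the Fth1 element lies at chr19:9982732-9982761 on the plus strand and the Ftl1 element at chr7:45459778-45459807 on the minus strand, both in the 5′ UTR.
Fth1 IRE: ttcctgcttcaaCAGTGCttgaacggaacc
Ftl1 IRE: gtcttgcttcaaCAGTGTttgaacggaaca
The search, on the transcript strand only, took a C, then any 5 bases, then CAGTG and an A, C or T. The 5 bases on either side of the loop had to be able to pair, with G-T pairs allowed. Such a match occurred in 13 of the 10930 annotated 5′ UTRs of tested genes (0.119%). Of these 13, 4 were higher in the ribosome-free pool (both ferritins, Vti1b at -2.34 and the pseudogene Ftl1-ps1 at -4.23, which shares sequence with Ftl1), 2 were higher in heavy polysomes (Bcorl1 at 1.79 and Ecd at 1.03) and 7 were not called. Bcorl1 and Ecd did not pass without the tag 2 pair (adjusted p = 0.0555 and 0.155). Bcorl1 and Ecd did not pass without the tag 4 pair (adjusted p = 0.0693 and 0.264). Ecd did not pass with the stricter filter (adjusted p = 0.078). A match describes the letters of an annotated leader and not a working element. The list of 7 iron-responsive mRNAs had 6 tested members, of which the 2 ferritins were called. Slc40a1, the iron exporter ferroportin, had a log2 fold change of -1.77 (adjusted p = 0.0955) and was not called. Tfrc, the transferrin receptor, carries its elements in the 3′ UTR. It stood at 39.7, 89.3 and 55.2 CPM and 60.5, 38 and 16.7 CPM with overlapping groups, at -0.80 ± 0.48 (SE, adjusted p = 0.221).

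Ribosomal protein mRNAs, the main family with a TOP start, were higher in the ribosome-free pool for 58 of the 78 tested members of a list of 79, and 0 were higher in heavy polysomes (68, 20 and 33 higher in the ribosome-free pool without tag A, 2 and 4). All 78 had a fold change below 0 under TMM, from -4.67 for Rps12 to -0.0605 for Rpl7, with a median of -1.98 (-1.17 with library totals). The medians within the pairs were -2.83, -1.63 and -1.68. The 58 called members were 74.4% of those tested, beside 20.1% of all genes. Rps12, of the small subunit, stood at 18114, 10759 and 12833 CPM in the ribosome-free libraries and 439.6, 539 and 637 CPM in the heavy ones, a log2 fold change of -4.67 ± 0.58 (SE, adjusted p = 0.00197). Rplp0, of the ribosomal stalk, stood at 13778, 7606 and 6366 CPM and 1366, 1140.5 and 1146 CPM, at -2.85 ± 0.50 (SE, adjusted p = 0.00481). In both genes the groups were far apart. Rpl39, of the large subunit, stood at 2444, 1672 and 1488 CPM and 80, 108 and 129.7 CPM, at -4.13 ± 0.50 (SE, adjusted p = 0.0019). Rps27a, which encodes a ubiquitin fused to a small subunit protein, was not called: it stood at 2843, 625 and 414 CPM and 736, 502 and 519 CPM with overlapping groups, at -0.63 ± 0.53 (SE, adjusted p = 0.382). Only the tag A ribosome-free library was far above the rest for Rps27a, and without that pair its fold change was 0.00655. Rplp0 did not pass without the tag 2 pair (adjusted p = 0.113). Many ribosomal protein genes have processed pseudogenes, and how reads that match several places were counted is not given in the sources used here.

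Among 17 other mRNAs of the translation machinery with a TOP start, 5 (29.4%) were higher in the ribosome-free pool and 0 in heavy polysomes. All genes gave 20.1% and 16.8%. Without tag A, 2 and 4 the ribosome-free calls were 10, 0 and 2 and the heavy calls 2, 0 and 0. With library totals there were 3 ribosome-free and 4 heavy calls. The 5 of the main fit were Tpt1, Pabpc1, Eif3f at -2.13, Eif3h at -1.68 and Eef1b2 at -1.65. Pabpc1, the poly(A)-binding protein, stood at 2874, 6345 and 3139 CPM and 619, 490.1 and 500.5 CPM, a log2 fold change of -2.85 ± 0.51 (SE, adjusted p = 0.00499). Tpt1, the translationally controlled tumour protein, stood at 5982, 7326 and 4276 CPM and 759.7, 957 and 629 CPM, at -2.89 ± 0.46 (SE, adjusted p = 0.00359). The heavy values of both were tightly grouped and lay well below every ribosome-free value. Eef1a1, the elongation factor that delivers aminoacyl-tRNA, stood at 8336, 9085 and 7688 CPM and 7104, 4648 and 4478 CPM and was not called, at -0.66 ± 0.48 (SE, adjusted p = 0.31). Its heavy values were all below its ribosome-free values. Eef2, the translocation factor, had overlapping groups at 1534, 2209 and 3506 CPM and 2670.5, 1977 and 2355 CPM, and was at 0.0186 ± 0.47 (SE, adjusted p = 0.978). The list's median was -0.66, and 0.16 with library totals, where the median of all genes was 0.89. Pabpc1, Tpt1, Eif3f, Eif3h and Eef1b2 did not pass without the tag 2 pair (adjusted p = 0.102, 0.0741, 0.0958, 0.206 and 0.298). Eif3f, Eif3h and Eef1b2 did not pass without the tag 4 pair (adjusted p = 0.0711, 0.158 and 0.172). Eif3h and Eef1b2 did not pass with library totals (adjusted p = 0.0676 and 0.0838).

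Initiation factors assemble the scanning ribosome. Of 37 tested, 6 were higher in heavy polysomes and 3 in the ribosome-free pool (without tag A, 2 and 4, 17, 1 and 1 on the heavy and 11, 0 and 1 on the ribosome-free side; 3 and 3 without the pairing term; 21 and 1 with library totals), with a median of 0.33. These shares, 16.2% and 8.11%, did not exceed the 16.8% and 20.1% of all genes. Eif4g1, the scaffold of the cap-binding complex, stood at 107, 48.8 and 38.9 CPM in the ribosome-free and 495, 250.0 and 242 CPM in the heavy libraries, at 2.40 ± 0.36 (SE, adjusted p = 0.00297). Eif4ebp1, the repressor that competes with that scaffold for the cap-binding protein, stood at 949.6, 315 and 291 CPM and 97.6, 108 and 116 CPM, at -2.03 ± 0.50 (SE, adjusted p = 0.0157). The groups of the scaffold and of its competitor did not overlap, and lay on opposite sides. The other mRNAs called higher in the ribosome-free pool were Eif4a2 at -1.65 and Eif1b at -1.40. Eif4ebp1, Eif4a2 and Eif1b did not pass without the tag 2 pair (adjusted p = 0.0553, 0.21 and 0.0524). Eif4a2 and Eif1b did not pass without the tag 4 pair (adjusted p = 0.174 and 0.0564). Eif4a2 and Eif1b did not pass with library totals (adjusted p = 0.103 and 0.195).

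The mRNAs with known upstream reading frames included the effectors of the integrated stress response. Of 12 tested, 7 (58.3%) were higher in the ribosome-free pool and 1 (8.33%), Ibtk, in heavy polysomes, with a median of -1.32. All genes gave 20.1% and 16.8%. Ribosome-free calls in this list were 8, 2 and 4 without tag A, 2 and 4. Atf4, the transcription factor made when initiation is limited, stood at 1653, 2329.8 and 2633 CPM in the ribosome-free and 229.7, 522 and 578 CPM in the heavy libraries, at -2.40 ± 0.43 (SE, adjusted p = 0.00509). Its groups did not overlap, and tag A was lowest in both pools. Atf5, a related factor, was at -2.15 ± 0.36 (SE, adjusted p = 0.00405). Ddit3, the stress factor CHOP, was at -1.95 ± 0.45 (SE, adjusted p = 0.0135), and Ppp1r15a, which recruits the phosphatase of the initiation factor eIF2, at -1.38 ± 0.38 (SE, adjusted p = 0.0245). Slc35a4, a transporter gene with a conserved upstream frame, was at -2.20 ± 0.33 (SE, adjusted p = 0.00309). Cebpb, at -1.25, and Sat1, at -1.53 ± 0.38, completed the called members. Ibtk was at 1.30 ± 0.39 (SE, adjusted p = 0.0324). Atf4, Atf5, Ppp1r15a, Cebpb, Sat1 and Ibtk did not pass without the tag 2 pair (adjusted p = 0.0727, 0.0506, 0.056, 0.17, 0.0764 and 0.052). Ppp1r15a, Cebpb, Sat1 and Ibtk did not pass without the tag 4 pair (adjusted p = 0.0598, 0.235, 0.0723 and 0.152). Sat1 and Ibtk did not pass without the pairing term (adjusted p = 0.0587 and 0.0629). Ppp1r15a, Cebpb and Sat1 did not pass with library totals (adjusted p = 0.214, 0.297 and 0.113). Ibtk did not pass with the stricter filter (adjusted p = 0.0806). The 5′ UTR of the Atf4 transcript used (594 bases, GENCODE M21) holds 3 ATG triplets, shown with ATG, and a stop codon where it falls in the window, in capitals.
Atf4 upstream ATG 1, chr15:80255294-80255323: ttttctctcATGgggcctttaggacgatct
Atf4 upstream ATG 2, chr15:80255573-80255602: gcggccaccATGgcgtatTAGaggcagcag
Atf4 upstream ATG 3, chr15:80255672-80256222: gcctaagccATGgcgctcttcacgaaatcc
All 3 are on the plus strand of GRCm38, and the third window spans an intron. The first opens a frame of 36 codons, the second one of 3 codons, and the third one of 59 codons that runs past the start of the Atf4 coding sequence.

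In the vehicle pools scaled together with the light polysomes, the upstream-frame mRNAs had a median log2 step of 0.0887 from ribosome-free to light and of -1.39 from light to heavy. These steps were -0.32 and -1.997 for Atf4, 0.27 and -2.34 for Atf5, 0.32 and -2.19 for Ddit3, 0.55 and -1.85 for Ppp1r15a, 0.11 and -1.56 for Sat1, 1.13 and 0.25 for Ibtk, and 0.056 and -2.17 for Slc35a4. For the ferritins they were -2.37 and -2.19 for Fth1 and -2.55 and -1.55 for Ftl1. Over all genes, the light value lay between the other pools for 1689 of the 2054 genes called higher in heavy polysomes (82.2%) and for 2109 of the 2454 called higher in the ribosome-free pool (85.9%). These values share libraries with the comparison itself and are a description.

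**Figure D2:**
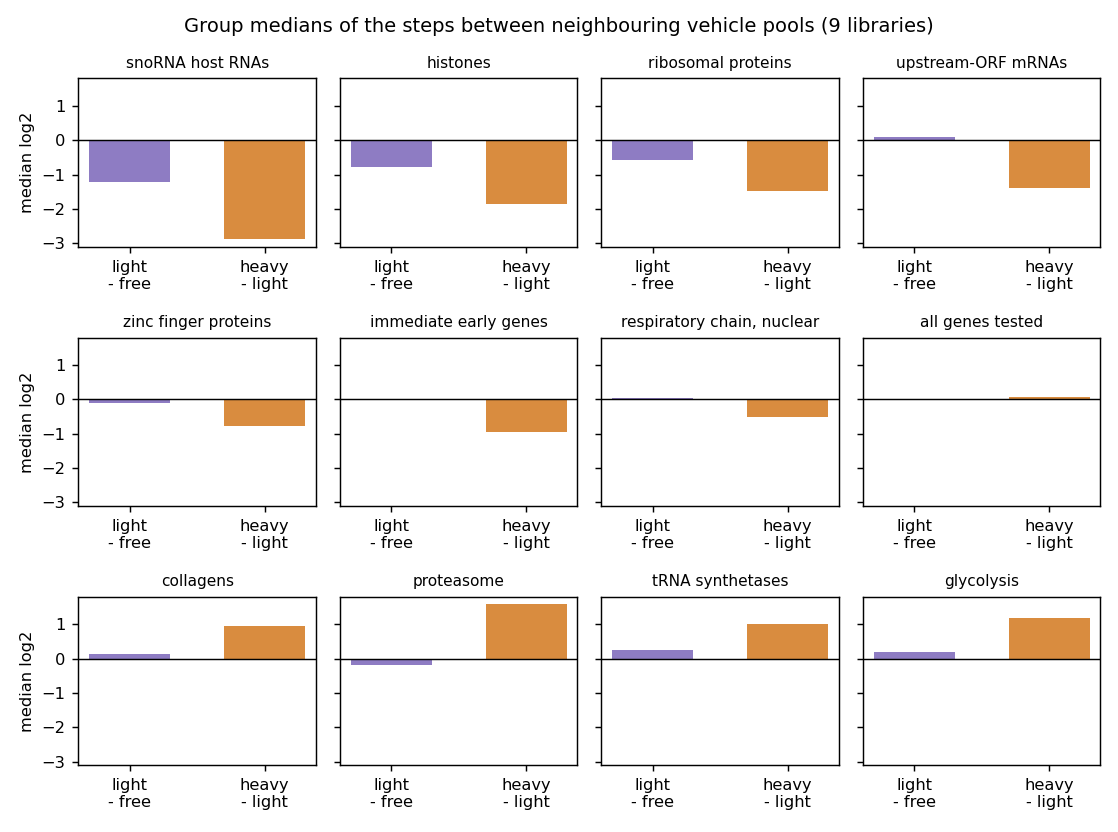
Median log2 steps from ribosome-free to light polysomes (purple) and from light to heavy polysomes (orange) for 11 gene groups and all genes tested, from the 9 vehicle pool libraries scaled together. The step into the light pool is near 0 for upstream-ORF mRNAs (0.09) and immediate early genes (0.02), and the step from light to heavy is -1.39 and -0.94.

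Among mRNAs with very short reading frames, 3 named ones were far higher in the ribosome-free pool. Tmsb4x, which encodes the actin-binding peptide thymosin beta 4, stood at 3052, 891 and 648 CPM in the ribosome-free and 56, 34.5 and 23.5 CPM in the heavy libraries, at -5.08 ± 0.49 (SE, adjusted p = 0.00138). Its relative Tmsb10 stood at 4242, 1511 and 1573 CPM and 76.8, 98.1 and 113 CPM, at -4.49 ± 0.59 (SE, adjusted p = 0.00224). Rpl41, which encodes the smallest ribosomal protein, stood at 15901, 3778 and 4525 CPM and 324, 301 and 382 CPM, at -4.25 ± 0.64 (SE, adjusted p = 0.00311). In all 3 genes the tag A ribosome-free library was the highest, and no heavy value came near any ribosome-free value. The coding sequences, from the shortest complete GENCODE M21 transcript of each gene on the minus strand of GRCm38, show how short these frames are. Rpl41 (chr10:128548387-128548960) has 25 codons before its stop codon and Tmsb4x (chrX:167207501-167208036) has 44; start and stop codons are in capitals, and each span covers exons and the introns between them.
Rpl41: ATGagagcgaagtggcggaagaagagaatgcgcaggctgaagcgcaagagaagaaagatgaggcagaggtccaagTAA
Tmsb4x: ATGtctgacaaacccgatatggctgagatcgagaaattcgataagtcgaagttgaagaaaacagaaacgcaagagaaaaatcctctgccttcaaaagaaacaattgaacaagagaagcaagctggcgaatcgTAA

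The comparison was graded by coding length. The 10930 tested genes with a complete coding sequence were split into deciles by their longest one. In the shortest decile (37 to 182 codons) the median log2 fold change was -1.56, 57.5% of genes were higher in the ribosome-free pool and 0.549% in heavy polysomes. In the longest decile (1166 codons and above) the median was 0.94, and the shares were 2.20% and 42.4%. In the fit, each decile in between had a higher median than the one before it. Within the pairs, this held in tag A alone. In tag 2 the median fell from 0.24 (325 to 393 codons) to 0.11 (554 to 672 codons). In tag 4 it fell from 0.18 (393 to 467 codons) to 0.14 (554 to 672 codons). The medians of the shortest decile within the pairs were -2.37, -1.04 and -1.22, and those of the longest were 1.55, 0.58 and 0.69. The gap between the ends was thus widest in tag A, whose pools were cut at other fraction numbers, and the fraction cut and the library set cannot be told apart. Over the 3 pairs the gap had an SD of 1.26.

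**Figure D3:**
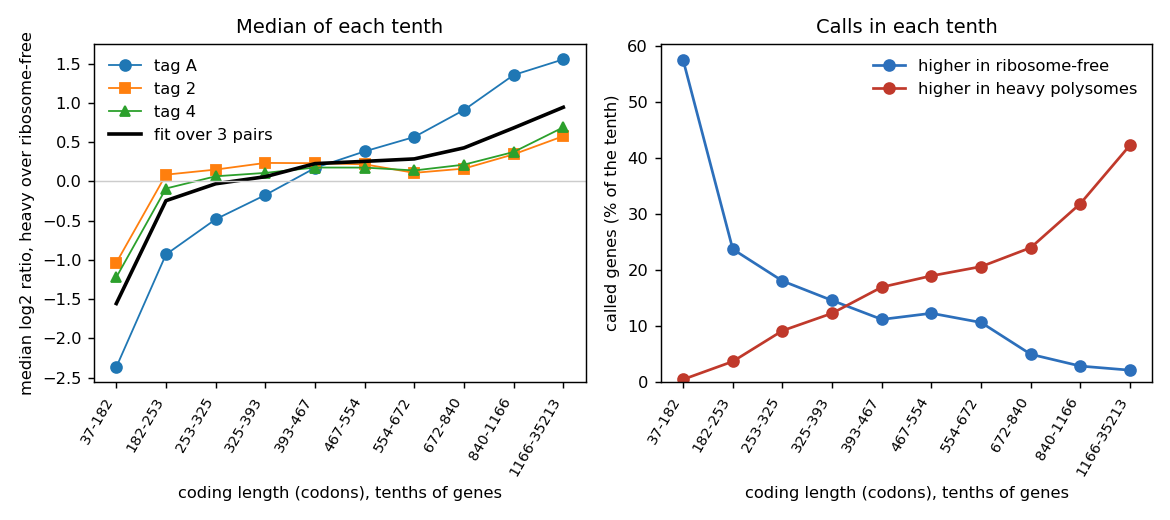
Left, the median log2 ratio (heavy over ribosome-free) in deciles of genes by coding length in codons, for each of the 3 pairs and for the fit. Right, the percentage of each decile called in either direction; calls on the ribosome-free side drop from 57.5% to 2.20% and calls on the heavy side climb from 0.549% to 42.4%.

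A few genes ran against this order. The 6 genes of the shortest decile that were higher in heavy polysomes were Arf3 at 1.81, Cdc42se2 at 1.47, Zfp740 at 1.39, Mafg at 1.04, Gadd45b at 0.93 and 1110012L19Rik at 1.34. Arf3, a small GTPase of the Golgi, stood at 48.2, 56 and 91 CPM in the ribosome-free and 195, 246 and 219.6 CPM in the heavy libraries. The groups of Arf3 did not overlap. In the longest decile 24 genes were higher in the ribosome-free pool. Among them were Camta1, a calmodulin-binding transcription activator, at -3.15 ± 0.39 (SE, adjusted p = 0.00197), and Peg3, an imprinted zinc finger gene, at -1.66. Ttn, the muscle protein titin, stood at 0.0872, 3.76 and 8.93 CPM and 0, 0.771 and 2.4 CPM, and Myh6, the cardiac myosin heavy chain, at 0.349, 20.8 and 59.7 CPM and 0.0352, 3.98 and 17.4 CPM. Both were almost absent in the pair of tag A and higher in tag 4 than in tag 2. These genes were picked after their values were seen. Arf3, Cdc42se2, Zfp740, Mafg, Gadd45b, 1110012L19Rik, Peg3 and Ttn did not pass without the tag 2 pair (adjusted p = 0.0946, 0.103, 0.1, 0.26, 0.365, 0.199, 0.235 and 0.142). Cdc42se2, Zfp740, Mafg, Gadd45b, 1110012L19Rik, Peg3 and Ttn did not pass without the tag 4 pair (adjusted p = 0.0547, 0.0578, 0.196, 0.345, 0.316, 0.123 and 0.118). Gadd45b, 1110012L19Rik, Ttn and Myh6 did not pass without the pairing term (adjusted p = 0.0764, 0.0927, 0.302 and 0.373). Peg3 and Ttn did not pass with library totals (adjusted p = 0.171 and 0.0506). Mafg, Gadd45b and 1110012L19Rik did not pass with the stricter filter (adjusted p = 0.0656, 0.104 and 0.0956). Gadd45b and 1110012L19Rik did not pass with median-of-ratios factors (adjusted p = 0.0525 and 0.0582).

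Differences by leader were smaller and were not alike in the 3 pairs. The median was 0.07 in the decile of genes with the shortest annotated 5′ UTR and 0.25 in that with the longest. Within the pairs it was 0.0543 and 0.59 in tag A, 0.0376 and 0.15 in tag 2, and 0.0119 and 0.0219 in tag 4. Over the fit it was 0.21 for the 5695 genes without an ATG triplet in the 5′ UTR, 0.12 for the 2382 with 1 and 0.09 for the 2853 with more. These 3 medians were 0.20, 0.17 and 0.34 in tag A, 0.20, 0.13 and 0.0427 in tag 2, and 0.20, 0.0656 and -0.0730 in tag 4, so in tag A the genes with most ATG triplets had the highest of the 3. For 239 genes whose annotated start is a C followed by at least 4 pyrimidines the median was -0.06, against 0.16 for the rest, a difference of -0.22 that was -0.06 when the shortest coding transcript was used. Annotated starts are not measured starts, and TOP starts are not readable from them.

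Among the largest differences on the heavy side under the naming rule were those of Pcdhgc3 at 4.46 ± 0.40, Med12 at 3.46 ± 0.42, Rad54l2 at 3.32 ± 0.36, Lpp at 3.29 ± 0.32, Atg9a at 3.23 ± 0.47, Tle3 at 3.10 ± 0.33, Slit3 at 3.04 ± 0.32, Anxa11 at 2.99 ± 0.49 and Tmem132a at 2.98 ± 0.32 (log2 ± SE; adjusted p from 0.00138 to 0.00386). They include membrane and secreted proteins (a protocadherin, the guidance factor Slit3), a subunit of the Mediator complex (Med12) and a transcriptional corepressor (Tle3). Lpp, a focal adhesion protein, stood at 12.3, 6.52 and 9.47 CPM in the ribosome-free and 126, 61.2 and 92.3 CPM in the heavy libraries, and Pcdhgc3 at 12.6, 4.27 and 1.74 CPM and 174, 117 and 53.3 CPM. The groups of Lpp and Pcdhgc3 were fully separate. Pcdhgc3 shares exons with the other genes of its cluster, which makes its counts less certain.

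**Figure D4:**
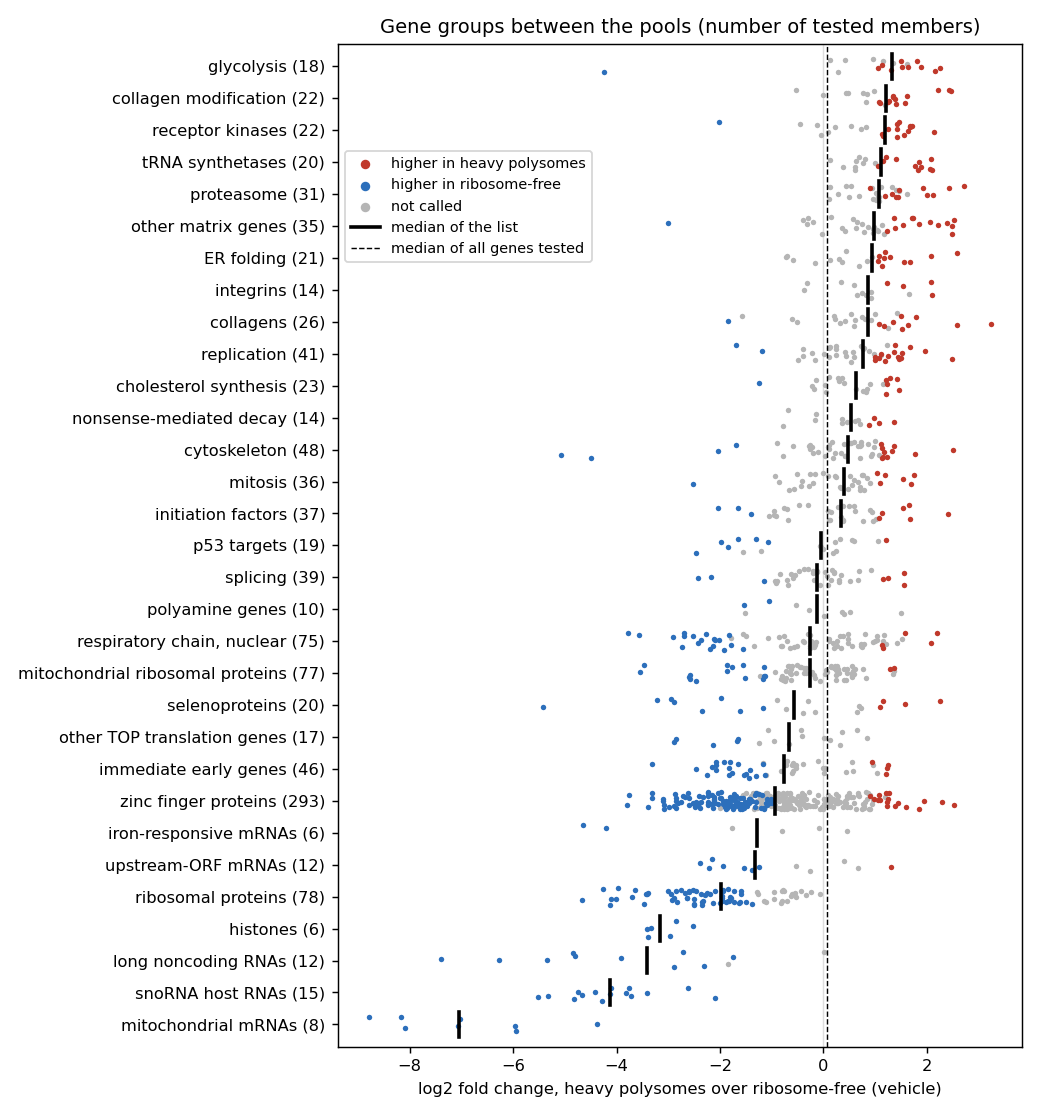
Log2 fold change (heavy polysomes over ribosome-free) of every tested member of 31 gene groups, coloured by call, with the median of each group (bar) and of all genes tested (dashed line, 0.07). Medians in the plot run from -7.05 for mitochondrial mRNAs to 1.33 for glycolysis.

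Genes of the secreted matrix and the enzymes that build it were called mostly on the heavy side. Heavy shares were 34.6% for collagens and 37.1% for other matrix genes, beside 16.8% of all genes. Ribosome-free shares were 3.85% and 2.86%, beside 20.1% of all genes. Of 26 tested collagen genes 9 were higher in heavy polysomes and 1, Col9a3, in the ribosome-free pool (without tag A, 2 and 4, 12, 2 and 2 on the heavy and 3, 0 and 0 on the ribosome-free side; 3 and 1 without the pairing term), with a median of 0.86. Col1a1, the main chain of type I collagen, stood at 439.7, 144 and 659.7 CPM in the ribosome-free and 1754, 324 and 1686 CPM in the heavy libraries, at 1.505 ± 0.41 (SE, adjusted p = 0.0235). Tag 2 was low in both pools and the groups overlapped, while each pair had its higher value in heavy polysomes. Col1a2, its partner chain, stood at 776, 477 and 1294 CPM and 3105, 777 and 2675 CPM and missed the threshold, at 1.25 ± 0.46 (SE, adjusted p = 0.0632). Col18a1, of basement membranes, rested on 3, 1 and 4 counts against 57, 42 and 86, at 3.24 ± 0.57. Col1a1 and Col9a3 did not pass without the tag 2 pair (adjusted p = 0.231 and 0.138). Col1a1 and Col9a3 did not pass without the tag 4 pair (adjusted p = 0.178 and 0.0999). Col1a1 did not pass without the pairing term (adjusted p = 0.127). Col9a3 did not pass with library totals (adjusted p = 0.127). Of 35 other matrix genes, 13 were higher in heavy polysomes (25, 6 and 6 without tag A, 2 and 4; 6 without the pairing term) and 1, Igfbp4, in the ribosome-free pool (4, 1 and 1 without tag A, 2 and 4), with a median of 0.99. Emilin1, an elastic fibre glycoprotein, stood at 16, 14.2 and 17 CPM and 89.6, 71.9 and 115 CPM, at 2.53 ± 0.31 (SE, adjusted p = 0.00197). Igfbp4, a secreted binding protein of insulin-like growth factors, stood at 10.2, 23.1 and 41.3 CPM and 0.774, 4.11 and 5.38 CPM, at -3.01 ± 0.38 (SE, adjusted p = 0.002). Both had separate groups, on opposite sides. Fn1, fibronectin, was not called, at 0.85 ± 0.41 (SE, adjusted p = 0.135).

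Of 22 genes that modify, fold or cut collagen, 13 (59.1%) were higher in heavy polysomes and 0 in the ribosome-free pool. All genes gave 16.8% and 20.1%. The median of the 22 was 1.21. Without tag A, 2 and 4 the heavy calls were 18, 3 and 2 and the ribosome-free calls 2, 0 and 0. Pcolce, the enhancer of procollagen C-proteinase, stood at 371, 155 and 185 CPM and 1126, 884 and 1820.0 CPM, at 2.47 ± 0.48 (SE, adjusted p = 0.0068). Serpinh1, the collagen chaperone HSP47, was at 1.26, and the prolyl hydroxylase subunit P4hb at 1.57. ER folding genes gave 10 of 21 (47.6%) higher in heavy polysomes and 0 in the ribosome-free pool, with a median of 0.94. Their heavy calls without tag A, 2 and 4 were 14, 2 and 2, and their ribosome-free calls 2, 0 and 0. Pdia6, a protein disulfide isomerase, stood at 136, 47 and 41.6 CPM and 531, 279 and 396 CPM, at 2.59 ± 0.41 (SE, adjusted p = 0.00356). The chaperone Hspa5 (BiP) was at 0.84 ± 0.39 (SE, adjusted p = 0.128) and not called. Every heavy value of Pcolce and Pdia6 was above every ribosome-free value. Pcolce, Serpinh1 and P4hb did not pass without the tag 2 pair (adjusted p = 0.0693, 0.351 and 0.262). Pcolce, Serpinh1 and P4hb did not pass without the tag 4 pair (adjusted p = 0.0713, 0.394 and 0.244). Serpinh1 and P4hb did not pass without the pairing term (adjusted p = 0.0755 and 0.0957). Serpinh1 did not pass with the stricter filter (adjusted p = 0.0672).

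Surface receptors were also called mostly on the heavy side. Heavy shares were 59.1% for receptor kinases and 28.6% for integrins, beside 16.8% of all genes. Ribosome-free shares were 4.55% and 0%, beside 20.1% of all genes. Of 22 receptor kinases 13 were higher in heavy polysomes (without tag A, 2 and 4, 13, 5 and 6 on the heavy and 4, 0 and 1 on the ribosome-free side), with a median of 1.20. Ptk7, a pseudokinase of planar cell polarity, stood at 8.72, 3.64 and 10.3 CPM and 49.2, 12.9 and 42.9 CPM, at 2.13 ± 0.33 (SE, adjusted p = 0.00314). The 1 called higher in the ribosome-free pool was Ryk, a Wnt receptor, at 289, 283 and 308 CPM and 78.2, 64.2 and 75.4 CPM and -2.02 ± 0.34 (SE, adjusted p = 0.00431). Ryk values were nearly constant within each pool. Integrins, the matrix receptors, gave 4 of 14 higher in heavy polysomes and 0 in the ribosome-free pool. The 4 were Itgb5 at 2.10 ± 0.36, Itgb7 at 2.08, Itga3 at 1.55 and Itgb1 at 1.23. Without tag A, 2 and 4 the heavy calls of integrins were 6, 1 and 3 and the ribosome-free calls 1, 0 and 0. Ryk, Itgb7, Itga3 and Itgb1 did not pass without the tag 2 pair (adjusted p = 0.0565, 0.0644, 0.0805 and 0.194). Itga3 and Itgb1 did not pass without the tag 4 pair (adjusted p = 0.0765 and 0.249). Itgb1 did not pass with the stricter filter (adjusted p = 0.0812).

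The proteasome, the protease of ubiquitin-tagged proteins, had called members on the heavy side alone. All 31 tested subunits had a fold change above 0, 11 were called higher in heavy polysomes and 0 in the ribosome-free pool (31, 2 and 2 higher in heavy without tag A, 2 and 4; 6 without the pairing term). The median was 1.07, and 0.26, 1.41 and 1.94 within the pairs. The called share was 35.5%, beside 16.8% of all genes on the heavy side. Psmd13, of the regulatory particle, stood at 58.3, 18.3 and 10.5 CPM and 191, 143 and 116 CPM, at 2.71 ± 0.43 (SE, adjusted p = 0.00356). Tag A was the highest library in both pools, and the groups were separate. Aminoacyl-tRNA synthetases, which charge tRNA, were all above 0 as well. Their share called higher in heavy polysomes was 55%, beside 16.8% of all genes. Of 20 tested, 11 were higher in heavy polysomes and 0 in the ribosome-free pool (17, 5 and 5 higher in heavy without tag A, 2 and 4), with a median of 1.11 and 1.16, 0.91 and 1.36 within the pairs. Eprs, the target of halofuginone, stood at 28.7, 29.6 and 49.3 CPM and 96.4, 53 and 101 CPM in these vehicle cells, at 1.21 ± 0.33 (SE, adjusted p = 0.0233). Iars, the isoleucyl enzyme, stood at 16.4, 12.2 and 5.88 CPM and 86.5, 38 and 27.7 CPM, at 2.09 ± 0.33 (SE, adjusted p = 0.00337). The heavy libraries of both exceeded all their ribosome-free libraries. Eprs did not pass without the tag 2 pair (adjusted p = 0.107). Eprs did not pass without the tag 4 pair (adjusted p = 0.125). Eprs did not pass with the stricter filter (adjusted p = 0.06).

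Glycolytic enzymes had a median of 1.33 (0.57 in tag A), with 10 of 18 higher in heavy polysomes and 1, Aldoc, in the ribosome-free pool. Heavy calls were 15, 2 and 1 without tag A, 2 and 4, and 6 without the pairing term. The main shares, 55.6% and 5.56%, stood beside 16.8% and 20.1% of all genes. Pfkl, the liver-type phosphofructokinase, stood at 63.3, 28.9 and 39.8 CPM and 224, 159 and 221 CPM, at 2.25 ± 0.35 (SE, adjusted p = 0.00332). Aldoc, the brain-type aldolase, was scarce, with 35, 29 and 27 counts against 6, 5 and 2, at -4.24 ± 0.54 (SE, adjusted p = 0.00211). Gapdh, which has many pseudogenes, stood at 2998, 890.5 and 1014 CPM and 2137, 2651 and 3348 CPM and was not called, at 0.96 ± 0.58 (SE, adjusted p = 0.221). Its pairs were at -0.49, 1.57 and 1.72, so tag A had the other sign. Cholesterol synthesis gave 6 of 23 higher in heavy polysomes, with Ebp, a sterol isomerase, at 1.47 ± 0.41. Its shares, 26.1% heavy and 4.35% ribosome-free, stood beside 16.8% and 20.1% of all genes. Without tag A, 2 and 4 its calls were 14, 0 and 0 on the heavy and 4, 0 and 0 on the ribosome-free side. Insig1, the ER anchor that restrains this pathway, was the 1 called the other way, at 138, 195 and 169 CPM and 51, 108 and 61 CPM and -1.25 ± 0.33 (SE, adjusted p = 0.0221). Ebp and Insig1 did not pass without the tag 2 pair (adjusted p = 0.178 and 0.122). Ebp and Insig1 did not pass without the tag 4 pair (adjusted p = 0.236 and 0.255). Insig1 did not pass with library totals (adjusted p = 0.298).

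Replication genes gave 15 of 41 (36.6%) higher in heavy polysomes and 2 (4.88%) in the ribosome-free pool, with a median of 0.77. All genes gave 16.8% and 20.1%. Heavy calls of replication genes were 28, 4 and 2 without tag A, 2 and 4, and 6 without the pairing term. Pcna, the sliding clamp, stood at 68.4, 38.9 and 18.4 CPM and 237, 217 and 166 CPM, at 2.48 ± 0.40 (SE, adjusted p = 0.00361). The 2 exceptions were Rpa3, the smallest subunit of the single-strand binding complex, at -1.69 ± 0.30, and Dut, the dUTPase, at -1.19. Mitosis genes gave 6 of 36 higher in heavy polysomes (16.7%, near the 16.8% of all genes) and 1 in the ribosome-free pool (without tag A, 2 and 4, 15, 2 and 2 on the heavy and 10, 1 and 1 on the ribosome-free side; 2 and 1 without the pairing term). Cdc20, the activator of the anaphase-promoting complex, was at 1.76 ± 0.43 (SE, adjusted p = 0.0161). Cenpa, the histone variant of centromeres, stood at 406, 239 and 129.9 CPM and 48, 56.8 and 24.8 CPM and was the 1 higher in the ribosome-free pool, at -2.51 ± 0.38 (SE, adjusted p = 0.00307). The groups of Pcna and Cenpa were separate, on opposite sides. Of 69 listed histone genes 6 passed the filter of this poly(A)-selected assay, and all 6 were higher in the ribosome-free pool, with a median of -3.16. Hist1h4i stood at 12.6, 6.27 and 6.32 CPM and 0.669, 0.771 and 0.801 CPM, at -3.41 ± 0.45 (SE, adjusted p = 0.00229). Dut and Cdc20 did not pass without the tag 2 pair (adjusted p = 0.147 and 0.127). Dut and Cdc20 did not pass without the tag 4 pair (adjusted p = 0.171 and 0.194). Dut and Cdc20 did not pass without the pairing term (adjusted p = 0.0686 and 0.1). Dut did not pass with library totals (adjusted p = 0.391).

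Cytoskeletal genes gave 10 of 48 higher in heavy polysomes and 4 in the ribosome-free pool (without tag A, 2 and 4, 30, 1 and 1 on the heavy and 6, 3 and 2 on the ribosome-free side; 3 and 4 without the pairing term). These shares, 20.8% and 8.33%, stood beside 16.8% and 20.1% of all genes. The 4 in the ribosome-free pool were Tmsb4x and Tmsb10, described above, and the actin-branching subunits Arpc5 at -2.04 and Arpc1b at -1.70. Actb, beta-actin, stood at 4341, 2468 and 6340.1 CPM and 3589, 3958 and 6821 CPM, overlapped and was not called, at 0.17 ± 0.47 (SE, adjusted p = 0.801). Actg1, gamma-actin, stood at 142, 12.9 and 4.36 CPM and 397, 101 and 37 CPM, at 2.496 ± 0.44 (SE, adjusted p = 0.00466). Values of Actg1 differed more between tags than between pools, and reads shared with Actb and with pseudogenes make this gene less certain. Arpc1b did not pass without the tag 2 pair (adjusted p = 0.26). Arpc5 and Arpc1b did not pass without the tag 4 pair (adjusted p = 0.0637 and 0.101). Actg1 did not pass without the pairing term (adjusted p = 0.299). Arpc1b did not pass with library totals (adjusted p = 0.0685).

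Immediate early genes, whose mRNAs are made and cleared quickly after a stimulus, were called mostly on the ribosome-free side. Of 46 tested, 20 were higher there and 4 in heavy polysomes (without tag A, 2 and 4, 31, 8 and 8 on the ribosome-free and 7, 0 and 0 on the heavy side; 1 higher in heavy without the pairing term). The median was -0.77, and 0.0462 with library totals, below the 0.89 of all genes. Called shares, 43.5% ribosome-free and 8.70% heavy, stood beside 20.1% and 16.8% of all genes. Zfp36, which targets AU-rich mRNAs for decay, stood at 217, 226 and 172 CPM in the ribosome-free and 24.1, 21.3 and 16.6 CPM in the heavy libraries, at -3.32 ± 0.34 (SE, adjusted p = 0.0014). Btg2, an antiproliferative cofactor of deadenylation, stood at 123, 71.3 and 113 CPM and 24.6, 13.7 and 17.8 CPM, at -2.46 ± 0.31 (SE, adjusted p = 0.00204). Neither gene had overlapping groups. Jun stood at 135, 229.6 and 151 CPM and 269, 274 and 207 CPM and Myc at 149.6, 117 and 87.7 CPM and 113, 117 and 93.5 CPM. Neither transcription factor was called, with log2 fold changes of 0.57 and -0.10. The 4 higher in heavy polysomes were Per1, a clock repressor, at 1.24 ± 0.33, Fosl2 at 1.23, Dusp4 at 1.21 and Gadd45b at 0.93. Per1, Fosl2, Dusp4 and Gadd45b did not pass without the tag 2 pair (adjusted p = 0.0862, 0.191, 0.258 and 0.365). Per1, Fosl2, Dusp4 and Gadd45b did not pass without the tag 4 pair (adjusted p = 0.162, 0.138, 0.118 and 0.345). Per1, Dusp4 and Gadd45b did not pass without the pairing term (adjusted p = 0.107, 0.273 and 0.0764). Per1, Fosl2, Dusp4 and Gadd45b did not pass with the stricter filter (adjusted p = 0.0549, 0.0619, 0.0555 and 0.104). Gadd45b did not pass with median-of-ratios factors (adjusted p = 0.0525).

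The C2H2 zinc finger proteins, a large family of DNA-binding regulators, gave 111 of 293 tested members higher in the ribosome-free pool and 17 in heavy polysomes (without tag A, 2 and 4, 206, 47 and 49 on the ribosome-free and 30, 3 and 5 on the heavy side), with 78 of the 371 listed below the filter. Their median was -0.93 (-0.30, -1.10 and -1.26 within the pairs; -0.13 with library totals, where the median of all genes was 0.89). Zfp992 stood at 10.4, 15.3 and 18 CPM and 0.915, 1.06 and 1.09 CPM, at -3.79 ± 0.38 (SE, adjusted p = 0.00138). Zfp407 stood at 1.31, 1.00 and 0.436 CPM and 7.6, 4.82 and 3.15 CPM, at 2.52 ± 0.44 (SE, adjusted p = 0.0045). Levels were low in both genes, and their groups did not overlap. The median coding length of the family was 579 codons. Its called shares, 37.9% ribosome-free and 5.80% heavy, stood beside 20.1% and 16.8% of all genes.

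Splicing factors gave 4 of 39 higher in heavy polysomes and 3 in the ribosome-free pool (without tag A, 2 and 4, 7, 0 and 0 on the heavy and 19, 2 and 2 on the ribosome-free side). These shares, 10.3% and 7.69%, did not exceed the 16.8% and 20.1% of all genes. On the heavy side were, among others, Hnrnpa2b1 at 1.56 ± 0.39, Srrm2 at 1.56 and Hnrnpc at 1.15. On the ribosome-free side were the kinases Clk4 at -2.43 ± 0.32 and Clk1 at -2.17, which phosphorylate SR proteins, and Hnrnpdl at -1.15. Clk4 stood at 54.1, 72.5 and 53.5 CPM and 12.6, 13.5 and 7.84 CPM, with separate groups. The targets of p53 gave 6 of 19 higher in the ribosome-free pool (7, 1 and 1 without tag A, 2 and 4; 3 without the pairing term) and 1 in heavy polysomes (4, 0 and 0), with a median of -0.0456. The shares of p53 targets, 31.6% and 5.26%, stood beside 20.1% and 16.8% of all genes. With library totals the counts turned, to 2 in the ribosome-free pool and 7 in heavy polysomes. All 12225 genes turned in the same way, to 1408 and 5420 calls, so this is not particular to the list. Called on the ribosome-free side were Mdm2, the ubiquitin ligase of p53, at -1.98 and Cdkn1a, the cell cycle inhibitor p21, at -1.65. Zmat3 was on the heavy side, at 1.21 ± 0.30. Nonsense-mediated decay factors gave 4 of 14 (28.6%) higher in heavy polysomes and 0 in the ribosome-free pool, beside 16.8% and 20.1% of all genes. The endonuclease Smg6 led them, at 1.37 ± 0.35. Without tag A, 2 and 4 their calls were 7, 0 and 0 on the heavy and 3, 0 and 0 on the ribosome-free side. Without the pairing term they were 2 and 0. Hnrnpa2b1, Srrm2, Hnrnpc, Hnrnpdl, Mdm2, Cdkn1a, Zmat3 and Smg6 did not pass without the tag 2 pair (adjusted p = 0.177, 0.0687, 0.286, 0.38, 0.0599, 0.0881, 0.219 and 0.105). Hnrnpa2b1, Srrm2, Hnrnpc, Hnrnpdl, Mdm2, Cdkn1a, Zmat3 and Smg6 did not pass without the tag 4 pair (adjusted p = 0.222, 0.0918, 0.26, 0.288, 0.102, 0.151, 0.142 and 0.2). Srrm2 and Cdkn1a did not pass without the pairing term (adjusted p = 0.0761 and 0.0918). Hnrnpdl and Cdkn1a did not pass with library totals (adjusted p = 0.439 and 0.078). Hnrnpc did not pass with the stricter filter (adjusted p = 0.0725). Hnrnpdl did not pass with no filter (adjusted p = 0.0731).

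Selenoproteins, which read a UGA codon as selenocysteine, gave 8 of 20 higher in the ribosome-free pool and 4 in heavy polysomes (without tag A, 2 and 4, 11, 6 and 6 on the ribosome-free and 7, 2 and 1 on the heavy side; 6 and 2 without the pairing term). The median was -0.57, and 0.25 with library totals, where that of all genes was 0.89. Called shares, 40% ribosome-free and 20% heavy, stood beside 20.1% and 16.8% of all genes. Selenow stood at 1344, 776 and 1875 CPM and 20, 21.2 and 58.5 CPM, at -5.42 ± 0.49 (SE, adjusted p = 0.00138). No heavy value of Selenow was near a ribosome-free value. Its coding sequence (88 codons, GRCm38 chr7:15919863-15922280, minus strand, exons and introns) has the in-frame TGA at codon 13, shown in capitals with the start and stop codons.
Selenow: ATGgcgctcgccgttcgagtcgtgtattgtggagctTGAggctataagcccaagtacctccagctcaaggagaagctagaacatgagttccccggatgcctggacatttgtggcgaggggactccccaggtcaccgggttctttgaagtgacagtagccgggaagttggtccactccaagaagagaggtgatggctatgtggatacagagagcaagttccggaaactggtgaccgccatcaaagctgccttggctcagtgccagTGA
The glutathione peroxidases Gpx1 and Gpx4, which detoxify peroxides, were at -3.21 and -2.95. Those higher in heavy polysomes were Txnrd3 at 2.26 ± 0.33, Dio2 at 1.58, Selenon at 1.15 and Txnrd1 at 1.08. Selenon and Txnrd1 did not pass without the tag 2 pair (adjusted p = 0.263 and 0.255). Dio2, Selenon and Txnrd1 did not pass without the tag 4 pair (adjusted p = 0.0501, 0.175 and 0.254). Dio2 and Txnrd1 did not pass without the pairing term (adjusted p = 0.215 and 0.115). Selenon and Txnrd1 did not pass with the stricter filter (adjusted p = 0.0535 and 0.0791). Of 10 polyamine genes 2 were called, both higher in the ribosome-free pool (20%, near the 20.1% of all genes). They were Sat1 (given with the upstream-frame mRNAs) and Oaz2 at -1.05. The calls numbered 0 without tag 2, without tag 4 or without the pairing term, and 4 on each side without tag A. With library totals 4 were higher in heavy polysomes and 0 in the ribosome-free pool, where all 12225 genes gave 5420 and 1408. Oaz2 also did not pass with library totals (adjusted p = 0.579) or with no filter (adjusted p = 0.087). Odc1, the first enzyme of the pathway, was at 0.52 ± 0.35 and its antizyme Oaz1 at -1.52 ± 0.64; neither was called. Within the pairs Oaz1 was at -3.52, -0.63 and -0.61.

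Long noncoding RNAs and pseudogenes, where called, were mostly on the ribosome-free side. Of 491 tested long noncoding RNAs 379 (77.2%) were higher there and 10 (2.04%) in heavy polysomes, with a median of -2.50. Of 375 pseudogenes 183 (48.8%) were higher in the ribosome-free pool and 16 (4.27%) in heavy polysomes. The 10964 protein-coding genes gave 1984 (18.1%) higher in heavy polysomes and 1740 (15.9%) in the ribosome-free pool, with a median of 0.16. Gas5, which hosts small nucleolar RNAs in its introns, stood at 1416, 1335 and 1099.6 CPM and 54.1, 64.9 and 80.7 CPM, at -4.28 ± 0.45 (SE, adjusted p = 0.00143). Another such host, Snhg1, stood at 601, 737 and 641 CPM and 32.5, 57.7 and 61.7 CPM, at -3.75 ± 0.42 (SE, adjusted p = 0.00157). All 15 tested hosts of a list of 18 were called with the same sign, with a median of -4.13. They were called as well without tag A, 2 or 4. Neat1, the scaffold of paraspeckles, stood at 46.2, 376 and 494 CPM and 10.2, 42.6 and 48.4 CPM, at -2.90 ± 0.40 (SE, adjusted p = 0.00251). Tag A was low in both pools for Neat1 and its groups overlapped, while each pair had the same sign. Malat1, an abundant nuclear RNA in many cells, was low here at 18.7, 25.2 and 20.7 CPM and 5.28, 5.37 and 2.69 CPM, at -2.32 ± 0.36 (SE, adjusted p = 0.00338). Meg3, an imprinted long noncoding RNA, had overlapping groups at 3.14, 2.76 and 5.66 CPM and 4.82, 1.77 and 5.66 CPM and was not called.

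The long noncoding RNA with the highest heavy level among the 10 exceptions was AU020206, at 13.1, 13.9 and 14.8 CPM and 45, 31.8 and 54.7 CPM and 1.62 ± 0.32 (SE, adjusted p = 0.00688). Its groups were separate. The others were A530017D24Rik, B930095G15Rik, 9130221H12Rik, Gm28875, 9330102E08Rik, Gm26982, 6330403L08Rik, Gm16536 and B230354K17Rik, at log2 fold changes from 1.10 to 2.69. Of these, 9130221H12Rik, Gm26982, 6330403L08Rik and Gm16536 are annotated as antisense to another gene, and the strand setting of the counting is not given in the sources used here. Among 14 small noncoding RNAs 1, annotated as the microRNA gene Mir6236, was higher in heavy polysomes. It stood at 4.01, 60.5 and 20.5 CPM and 13.9, 96 and 372 CPM, values that differ more between tags than between pools. Among 53 genes of other types 5 were higher in heavy polysomes, all with the annotation's label for unverified transcripts: Gm43860, Gm37123, Gm43965, Gm44950 and Gm43737. These exceptions were named after their values were seen. B930095G15Rik, 9130221H12Rik, 6330403L08Rik, B230354K17Rik, Gm43965, Gm44950 and Gm43737 did not pass without the tag 2 pair (adjusted p = 0.223, 0.102, 0.182, 0.113, 0.148, 0.093 and 0.136). AU020206, B930095G15Rik, 9130221H12Rik, Gm28875, 6330403L08Rik, Gm16536, B230354K17Rik, Mir6236, Gm43860, Gm37123, Gm43965, Gm44950 and Gm43737 did not pass without the tag 4 pair (adjusted p = 0.0691, 0.162, 0.165, 0.153, 0.221, 0.0532, 0.235, 0.161, 0.141, 0.0744, 0.104, 0.0775 and 0.0995). Gm28875, 6330403L08Rik, Mir6236 and Gm44950 did not pass without the pairing term (adjusted p = 0.0523, 0.126, 0.129 and 0.0667). 6330403L08Rik, B230354K17Rik, Mir6236 and Gm44950 did not pass with the stricter filter (adjusted p = 0.091, 0.0866, 0.0652 and 0.0655).

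Mitochondrially encoded RNAs are mRNAs, translated inside the organelle by its own ribosomes, and tRNAs and rRNAs, which are not translated. Such RNAs made up the 10 largest called differences on the ribosome-free side under the naming rule, which leaves out predicted genes and pseudogenes. All 15 tested were higher in the ribosome-free pool, with a median of -8.02, from -9.10 for mt-Ti, on few counts, to -4.38 for mt-Co1. For mt-Ti, mt-Tm, mt-Tt, mt-Tw and mt-Co2 no heavy library held more than 3 counts. They passed the expression filter through the ribosome-free libraries alone, so their direction was set in advance. mt-Nd1, of complex I, stood at 44088, 196889 and 147824 CPM in the ribosome-free and 476, 349.8 and 346 CPM in the heavy libraries, at -8.17 ± 1.00 (SE, adjusted p = 0.00192). mt-Cytb, of complex III, stood at 36504, 70343 and 83768 CPM and 1046, 894 and 979.6 CPM, at -5.95 ± 0.73 (SE, adjusted p = 0.00196). mt-Co1, of complex IV, stood at 13281, 27719.7 and 8995 CPM and 1020.0, 1018 and 354 CPM, at -4.38 ± 0.58 (SE, adjusted p = 0.00229). Tag A was the lowest ribosome-free library for mt-Nd1 and mt-Cytb and tag 4 for mt-Co1, and no heavy value came near a ribosome-free one. The larger rRNA mt-Rnr2 stood at 2927, 9963 and 6259 CPM and 28.1, 22.5 and 17 CPM. For mt-Co2 the heavy libraries held 0, 2 and 0 counts against 63, 208 and 58, so its fitted value is not a size. Nuclear copies of mitochondrial sequence make reads of these genes less certain.

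The nuclear-encoded partners of these mRNAs did not share one direction. Of 75 respiratory chain genes 19 were higher in the ribosome-free pool and 5 in heavy polysomes (without tag A, 2 and 4, 23, 16 and 19 on the ribosome-free and 40, 0 and 0 on the heavy side). These shares, 25.3% and 6.67%, stood beside 20.1% and 16.8% of all genes. The 5 in heavy polysomes were Ndufv1, Atp5b at 2.09, Atp5a1 at 1.57, Sdha at 1.14 and Ndufs1 at 1.14, which encode core subunits of complexes I, II and V. Ndufv1, the flavoprotein of complex I, stood at 132, 43.2 and 44.1 CPM and 252, 234 and 397 CPM, at 2.19 ± 0.50 (SE, adjusted p = 0.0129). Ndufc1, a small accessory subunit of the same complex, stood at 389.7, 191 and 168 CPM and 14, 16.4 and 20.8 CPM, at -3.78 ± 0.47 (SE, adjusted p = 0.00197). The groups of both subunits were separate, on opposite sides. The list's median was -0.25 and its medians within the pairs were -1.91, 0.43 and 0.55, so it was negative in tag A alone; it was 0.50 without that pair and 0.56 with library totals. Mitochondrial ribosomal proteins showed the same split, at -1.47, 0.13 and 0.39 within the pairs and -0.27 in the fit (0.28 without tag A and 0.55 with library totals). Of 77 tested, 15 were higher in the ribosome-free pool, led by Mrpl42 at -3.54 ± 0.48, and 2 in heavy polysomes (without tag A, 2 and 4, 17, 10 and 10 on the ribosome-free and 34, 0 and 0 on the heavy side). Mrps27 led the latter, at 1.36 ± 0.36. The share of this family higher in the ribosome-free pool, 19.5%, was near the 20.1% of all genes. The share higher in heavy polysomes was 2.60%, below the 16.8% of all genes. Ndufv1, Atp5b, Atp5a1, Sdha, Ndufs1 and Mrps27 did not pass without the tag 2 pair (adjusted p = 0.0631, 0.281, 0.254, 0.222, 0.132 and 0.167). Ndufv1, Atp5b, Atp5a1, Sdha, Ndufs1 and Mrps27 did not pass without the tag 4 pair (adjusted p = 0.0942, 0.244, 0.265, 0.234, 0.168 and 0.192). Atp5b did not pass without the pairing term (adjusted p = 0.0805). Sdha and Ndufs1 did not pass with the stricter filter (adjusted p = 0.0503 and 0.0644).

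**Figure D5:**
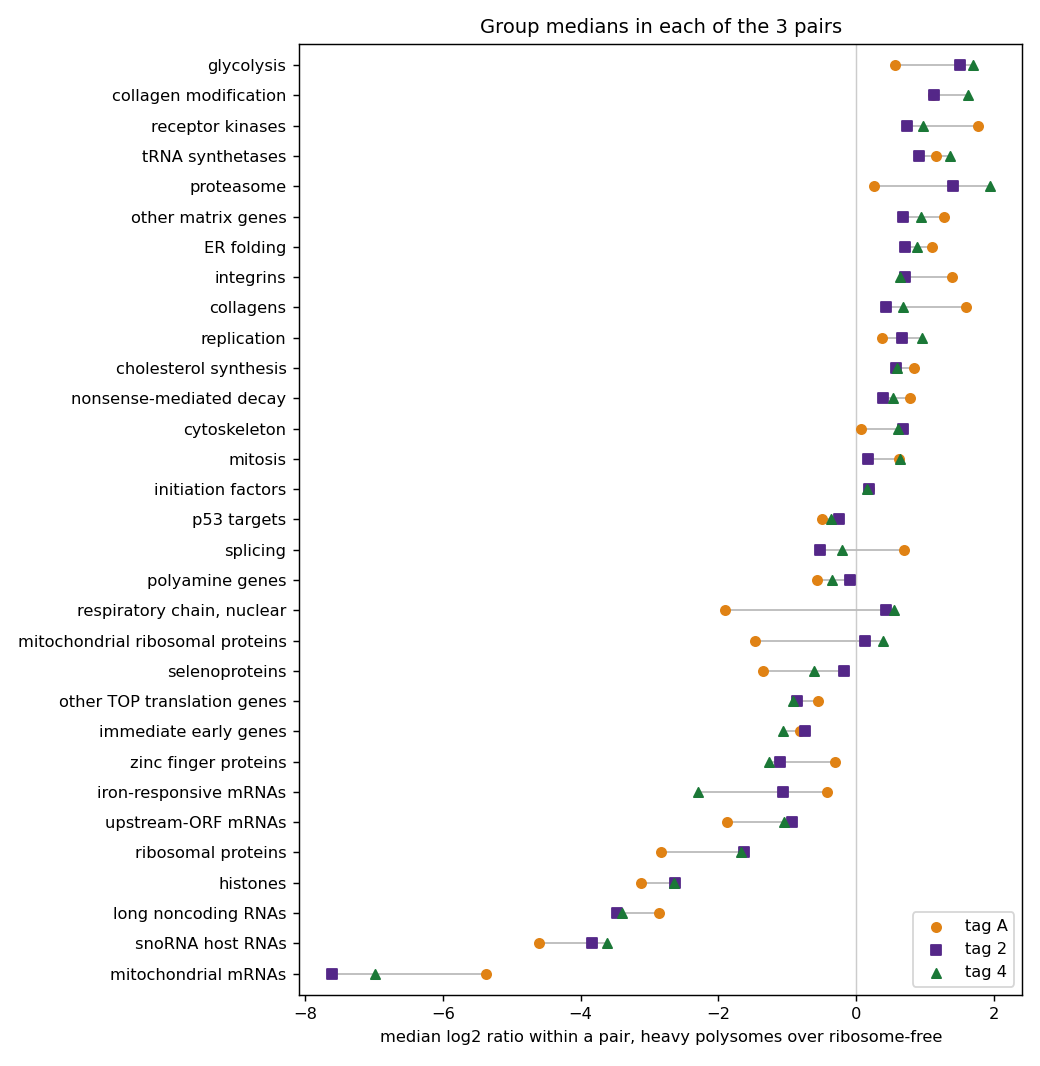
Median log2 ratio (heavy polysomes over ribosome-free) of 31 gene groups within each of the 3 pairs of vehicle libraries. The nuclear respiratory chain group stands at -1.91 in tag A and at 0.43 and 0.55 in tags 2 and 4, and the mitochondrial ribosomal proteins at -1.47, 0.13 and 0.39.

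Set against genes of their own length, several groups stood elsewhere than their raw medians. The values here are the median difference of members from the median of their own coding-length decile, a description with no test. Proteasome subunits, with a median of 321 codons, were 1.21 above their deciles, and all 31 were above. Glycolytic enzymes were at 0.93, collagen-modifying enzymes at 0.94, ER folding genes at 0.71 and tRNA synthetases at 0.52. Collagens, with a median of 1596 codons, were at 0.0274, with as many members above as below their deciles. Also near 0 were integrins at 0.10 (7 above and 7 below) and selenoproteins at -0.0559 (9 and 11). Nonsense-mediated decay factors were at 0.11 (8 and 6). Nuclear respiratory chain genes were at 0.81 and mitochondrial ribosomal proteins at 0.42, above genes of like length. Ribosomal proteins were at -0.83, other TOP mRNAs at -0.89, zinc finger proteins at -1.29, iron-responsive mRNAs at -1.64 and histones at -1.81. Among the 290 zinc finger genes with a coding sequence 43 were above their decile.

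The same contrast in cells given halofuginone was compared in one fit of 12 libraries. The headers of the tag A halofuginone columns give 50 nM where the labels give 100 nM, so the dose of that pair is not settled. The difference between treatments was called for 0 of 13053 genes (0%) by edgeR, with 71 at an unadjusted p under 0.05 (0.544%). DESeq2 called 0 as well, with 133 at an unadjusted p under 0.05. The 0.544% of edgeR lay well below the share of 0.05 that evenly spread p-values give, so that fit was cautious. With the tag A pairs left out, edgeR gave 323 of 12724 at an unadjusted p under 0.05. Its smallest adjusted p was then 0.0641. The standard error of a gene's difference had a median of 0.57 on the log2 scale, which limits the differences that could be detected. Atf4 was at -1.64 with halofuginone, a difference of 0.70 ± 0.54 from vehicle, and Fth1 at -4.31, a difference of 0.28 ± 0.69. Col1a1 was at 0.35, a difference of -1.20 ± 0.66, and Pcolce at 1.19, a difference of -1.34 ± 0.56. No gene among these passed. Ribosomal proteins had a median of -1.93 in vehicle and -1.69 with halofuginone, and the proteasome 1.12 and 1.33. Cholesterol synthesis had 0.69 and -0.61. Its medians within the halofuginone pairs were 0.62, 0.10 and -2.18, and only that of tag 4 was below 0.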

How the data were processed

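Counts per gene symbol for 24 libraries were deposited by the authors as whole numbers in 1 table; the submitters' processing notes name the build GRCm38.p5 and, with no roles, featureCounts from Subread 1.5.0p3, STAR 2.5.2b and Trimmomatic 0.36. Per the labels' protocols, libraries came from a stranded, poly(A)-selecting kit. How strand and multiply matching reads were handled in counting: not given in the sources used here. The table held 49568 symbols, of which 47313 were found in GENCODE M21 (GRCm38), and 0 columns of other samples.

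Column headers gave the group of each column but not its single sample. Pairs followed the column tag, and the rule for this comparison put them in the fit. Deviations from the pool means correlated at 0.311, 0.462 and 0.497 across genes within a tag and at -0.143 or less between tags. Deviations from a mean cancel over the libraries of a pool, so the values between tags are not separate support. Genes are not independent replicates. Genes passing edgeR's default filter were tested on the deposited counts in edgeR 4.0.16 under R 4.3.3 by the quasi-likelihood method, with TMM scaling, the tag as a block, and a Benjamini-Hochberg threshold of 0.05. CPM values are TMM-scaled over the 6 libraries, and the 9-library values over 3 pools. Within-pair ratios used a prior count of 2. The treatment difference was fitted over 12 libraries with 6 pair blocks. The fitting code was tested on simulated data.

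Members and the 32 gene lists were chosen with earlier results of these data known. Named genes were the 10 largest called differences per direction (mean of at least 10 CPM in a pool, separate groups, same sign in all pairs, no predicted genes or pseudogenes), a fixed set, and the largest called member of each list per direction; others were named after their values were seen. Values of a few genes under this rule are not reported here. Lists are described by counts and medians without a set test. Alternatives were no block, DESeq2 1.42.0, median-of-ratios factors, library totals, mitochondrial genes left out, no filter, at least 5 CPM in 3 libraries, each pair left out, and 9 libraries in the fit.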

Additional observations from a re-analysis of the deposited data

How the results depend on the processing

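Counts with library totals alone were 6828 genes called, 5420 higher in heavy polysomes, 1408 higher in the ribosome-free pool and 6601 at 2-fold or more. Higher in heavy polysomes were 1215 genes with the stricter filter and 3359 with all 9 vehicle pools in the fit. Leaving out each pair in turn gave 2270 to 8478 calls, 610 to 4248 higher in heavy polysomes, 1601 to 4230 higher in the ribosome-free pool and 2270 to 5472 at 2-fold or more. Without the replicate block 3616 genes were called (1457 and 2159), of which 3566 were among the 4508 with the same direction. DESeq2 called 5217. With no expression filter the treatment difference was called for 3 genes, Avil, Smt3h2-ps and Agtr2. The difference by annotated C-and-pyrimidine start was -0.0594 with the shortest coding transcript, against an SD over pairs of 0.12.

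Median minus that of all genes changed sign for nuclear respiratory chain genes (0.0324 with no filter; -0.79 to 0.48 over the pairs left out, above 0 without tag A), mitochondrial ribosomal proteins (0.0229; -0.60 to 0.27, likewise), polyamine genes (0.16 with no filter), splicing factors (0.17) and p53 targets (0.23). Uncalled genes that changed sign, with the range over the pairs left out, were Actb (-0.0599 stricter filter; -0.0729 to 0.39), Eef1a1 (0.16 library totals), Eef2 (-0.0499 without the block, -0.0127 DESeq2, -0.0127 median-of-ratios factors, -0.21 stricter filter; -0.37 to 0.34), Rps27a (0.19 totals; -1.11 to 0.00655), Tfrc (0.0123 totals), Azin1 (-0.0841 to 0.68), Amd1 (0.30 totals), Meg3 (-0.0200 DESeq2, -0.0179 median-of-ratios factors; -0.26 to 0.32), Myc (0.72 totals, 0.10 no filter; -0.18 to 0.0498) and Ahnak (0.64 totals, 0.0267 no filter; -0.48 to 0.0882). Of the 500 called list members and named genes 0 changed sign in any of the 11 settings. They were chosen by their calls in these libraries, and nearly all called genes had 1 sign in the 3 pairs. Leaving out a pair could hardly turn a sign, so the 0 is not separate support. Of these genes 286 of 499 lost the call without tag 2, 266 without tag 4, 117 with library totals and 113 without the block. A further setting, the stricter filter, took the call from 73 of 418. Calls lost were 22 with no filter, 12 with median-of-ratios factors and 5 of 485 with mitochondrial genes left out. They were 0 without tag A, with DESeq2 or with 9 libraries. The cause was not tested. With 3 pairs and no amounts of RNA per pool, values are shares, and genes with few counts in a pool have no firm size.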

Other observations

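Values of total RNA in vehicle cells were not used in the comparison. The 3 total RNA libraries (tags A, 2 and 3) held 18170576, 23181028 and 17517995 counts, with 2.42%, 4.17% and 2.49% of them from mitochondrially encoded genes. Those shares lie between the heavy and the ribosome-free pools and are near the 2.41%, 4.98% and 2.53% of the light polysomes. Genes with at least 10 counts numbered 11795 to 12301 in the ribosome-free, 12559 to 12824 in the light and 11910 to 12465 in the heavy libraries.

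For some RNAs the light pool held the highest mean of the 3 pools. Per1 had a log2 step of 2.53 from ribosome-free to light and of -1.22 from light to heavy, and Eef2 of 1.14 and -1.03. Meg3, which was not called between heavy and ribosome-free, had steps of 1.51 and -1.43. Hnrnpa2b1 had the opposite shape, at -0.61 and 2.26, as did Tfrc, at -1.46 and 0.76. These are means over 3 libraries with no test.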
